A study of Mus musculus with 8 samples.

Results

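The cell cycle inhibitors Cdkn2a, Cdkn2b, Cdkn1a and Cdkn1b, the tumour suppressor Trp53 and its targets Mdm2, Ccng1, Trp53inp1, Sesn2 and Perp were followed across induced hepatocyte-like (iHep) lines, primary hepatocytes (PH) and mouse embryonic fibroblasts (MEF). These 10 genes were chosen by name, with earlier results of these data known. A gene was kept where the array had a probe set, a group of short probes read as 1 value, annotated to that gene alone. In all, 9 of the 10 genes had one, with 16 probe sets out of 28898 that cover 17097 genes, and every one of the 16 is described. Trp53 itself was not analysed here. Where a gene had several probe sets, the one with the highest mean over the arrays stood for the gene in counts.

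Each of 8 arrays measured 1 RNA sample. The 3 iHep lines were epithelial lines established after retroviral transduction and were taken at passage 10, with 1 array for each line. The transduced genes were Hnf4a and Foxa3 for 4a3. For 4a3CK they were Hnf4a, Foxa3, c-Myc and Klf4, and for 4a1CK Foxa1 took the place of Foxa3. They grew in Hep medium, with dexamethasone, nicotinamide, insulin, transferrin, selenium, FGF4, HGF and EGF, and their mouse strain is not given in the sources used here. The 3 PH samples came from livers of male C57/B6 mice aged 8 to 10 weeks, were isolated by collagenase perfusion and were then cultured in the same medium. The 2 MEF samples came from C57/B6 embryos at day 13.5 of gestation, from which the head and internal organs had been taken away, and their passage number is not given in the sources used here. The PH sample without a number is called PH 3. Each line stands as 1 array, so the spread of the iHep group holds factor sets and lines together. The p-values below measure only the spread between these arrays, which may be technical. Precision throughout is limited by how few arrays there were.

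Cdkn2a encodes a pair of proteins from separate first exons. Ink4a (p16) binds the kinases Cdk4 and Cdk6 and keeps the retinoblastoma protein active, whereas Arf (p19 in mouse) holds back Mdm2, the ubiquitin ligase that degrades p53. When p53 is freed it switches on Cdkn1a (p21), which inhibits cyclin-dependent kinases, and Mdm2 itself, which closes a feedback loop. Arf and Ink4a are known to accumulate in cultured mouse fibroblasts as they are passaged, and loss of this locus or of p53 is known to ease reprogramming of fibroblasts. In healthy young adult liver Cdkn2a is normally low.

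Promoters are shown for Cdkn2a, to set its pair of starts side by side, and for the members with a p53 motif near their start. RefSeq windows on GRCm38.p6 run from 250 bases before to 50 bases after a start, and 7 of the 9 measured members had at least 1 of them, 9 windows in all. Windows of Perp and Trp53inp1 were not used here. Bases are counted from the 5′ end of a window. Capitals mark GGGCGG, the core letters of an Sp1 box, in both Cdkn2a windows, and the p53 half-site consensus in the others. The upstream Cdkn2a window is that of the Arf start and the downstream one that of the Ink4a start, and Cdkn1a is shown at its upstream start.
Cdkn2a Arf start, chr4:89294570-89294869, minus strand: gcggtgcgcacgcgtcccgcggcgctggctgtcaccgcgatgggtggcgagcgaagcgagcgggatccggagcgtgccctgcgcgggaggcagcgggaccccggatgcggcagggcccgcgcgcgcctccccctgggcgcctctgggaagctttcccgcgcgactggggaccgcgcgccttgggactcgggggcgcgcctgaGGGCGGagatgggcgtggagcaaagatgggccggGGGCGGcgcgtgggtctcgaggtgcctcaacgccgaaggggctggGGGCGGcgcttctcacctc
Cdkn2a Ink4a start, chr4:89282143-89282442, minus strand: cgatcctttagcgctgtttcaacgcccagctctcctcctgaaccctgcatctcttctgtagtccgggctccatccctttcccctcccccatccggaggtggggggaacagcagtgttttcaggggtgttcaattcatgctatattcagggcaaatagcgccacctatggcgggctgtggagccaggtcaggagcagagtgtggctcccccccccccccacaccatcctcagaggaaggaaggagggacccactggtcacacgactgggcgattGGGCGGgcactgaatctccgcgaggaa
Cdkn1a, chr17:29090729-29091028, plus strand: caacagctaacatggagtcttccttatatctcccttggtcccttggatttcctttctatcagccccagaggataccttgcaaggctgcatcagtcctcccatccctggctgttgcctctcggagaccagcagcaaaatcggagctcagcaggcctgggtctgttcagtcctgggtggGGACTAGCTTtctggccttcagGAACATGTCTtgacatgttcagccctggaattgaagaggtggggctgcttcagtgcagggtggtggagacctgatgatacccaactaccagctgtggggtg
Mdm2, chr10:117710709-117711008, minus strand: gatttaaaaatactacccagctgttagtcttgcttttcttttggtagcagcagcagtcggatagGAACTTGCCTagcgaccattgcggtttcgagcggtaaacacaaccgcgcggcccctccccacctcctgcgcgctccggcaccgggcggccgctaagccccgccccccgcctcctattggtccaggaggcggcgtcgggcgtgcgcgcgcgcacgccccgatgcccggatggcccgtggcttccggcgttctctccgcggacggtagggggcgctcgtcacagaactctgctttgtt
Ccng1, chr11:40755237-40755536, minus strand: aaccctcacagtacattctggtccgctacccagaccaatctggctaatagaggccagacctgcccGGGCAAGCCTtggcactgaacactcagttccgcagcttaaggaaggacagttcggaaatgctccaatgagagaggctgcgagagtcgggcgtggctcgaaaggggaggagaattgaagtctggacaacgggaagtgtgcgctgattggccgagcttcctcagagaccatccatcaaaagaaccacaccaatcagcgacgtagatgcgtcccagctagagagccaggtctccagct

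The Arf window held 45 CpG dinucleotides and 77.0% G and C, more CpG than 98.1% of all 32851 mouse windows. The Ink4a window held 12 CpG and 60.3% G and C, more CpG than 60.4% of windows. GGGCGG, searched on both strands, stood 3 times in the Arf window and once in the Ink4a window, and 6 of the 7 members had it, against 35.7% of all windows. The upstream Cdkn1a window had 2 CpG, more than 14.1% of windows, and 2 matches to the p53 half-site consensus, at bases 178 to 187 and 200 to 209. Mdm2 had a match at bases 65 to 74 and Ccng1 at bases 66 to 75. A half-site was found in 3 of the 7 members, against 8.36% of all windows. The consensus reads the same on both strands, so each match was counted once. A member was counted if any of its windows matched, whereas the shares over all windows are by single window, so the units differ. The E2F motifs TTTCGCGC and TTTGGCGC, which occur in 0.323% and 0.514% of windows, were in 0 of the 7 members' windows. A match is a run of letters and says nothing of binding in these cells.

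The arrays were not on a common level. Median log2 values were 4.40 to 4.45 in the lines, 4.23 and 4.24 in PH 1 and PH 2, 5.06 in PH 3, and 4.23 to 4.24 in MEF. PH 1 and PH 2 were nearly identical, with an SD of 0.152 for their differences over probe sets, against 0.536 for either of them and PH 3 and 0.522 for the MEF pair. The bacterial control probes averaged 8.63 to 8.81 in the lines, 8.08 to 8.63 in PH and 7.65 to 8.01 in MEF, and their part in any difference below was not tested. The hepatocyte and fibroblast lists are given here as the median log2 level over their genes. Hepatocyte markers stood at 4.66 to 8.21 in the lines, with 4a1CK the lowest, at 10.75 to 11.12 in PH and at 4.40 to 4.48 in MEF. Albumin (Alb) read 9.30 in 4a3 but 3.80 in 4a3CK and 4.01 in 4a1CK, against 4.01 and 4.12 in MEF, so this defining hepatocyte transcript was at the MEF level in 4a3CK and 4a1CK. Fibroblast markers stood at 3.81 to 3.87 in the lines, 3.92 to 4.33 in PH and 9.29 to 10.34 in MEF. Of the 12, 8 were called lower in the lines than in MEF, by the rule below, and 0 higher. The summed log2 level of all 12 was 11.88 to 12.69 in the lines and 14.44 and 13.86 in MEF. Vim read 11.79 to 12.54 in the lines, against 12.07 and 12.30 in MEF. Line 4a1CK read 7.52 for Twist1 (MEF 7.40 and 8.31), 7.76 for Prrx1 and 7.12 for Col3a1. Differences below are of group means in a limma model of all arrays. A gene or probe set counts as called at an adjusted p under 0.05, over all probe sets tested, and a log2 difference of 1 or more, up or down.

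Cdkn2a was high in all 3 iHep lines and dim in primary hepatocytes, while the MEF arrays were far apart. Its log2 signal was 9.10 in 4a3, 8.74 in 4a3CK and 8.76 in 4a1CK, against 3.04, 3.16 and 3.57 in PH 1 to PH 3, and 7.13 in MEF 1 and 3.59 in MEF 2. All PH arrays and MEF 2 were under 4.29, taken here as the limit of dim signal. This is the value at percentile 40 of the 28898 tested probe sets over all arrays. It lies near most of the array medians given above, which are over all probe sets. The lines lay above every PH and MEF array, and MEF 2 was nearer to PH than to MEF 1. By percentile within each array MEF 2 stood at 26.6, above PH at 3.68 to 8.41 and below MEF 1 at 84.8. The mean was 8.86 ± 0.20 in the lines, 3.26 ± 0.28 in PH and 5.36 ± 2.51 in MEF (SD, n = 3, 3 and 2).

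Between the lines and PH the Cdkn2a difference was 5.61 ± 0.73 on the log2 scale (SE; limma, adjusted p = 0.00342), a 48.7-fold higher signal in the lines, and the 17 alternative settings gave 5.49 to 6.44 with the call kept in each. PH was dim, so the fold may understate the difference. The lines, MEF 2 and PH 3 were deposited before MEF 1, PH 1 and PH 2, and within that earlier set the lines stood 5.29 above PH 3. Between the lines and MEF it was 3.50 ± 0.82 (adjusted p = 0.0443), or 11.4-fold, but the size hung on the MEF array, 1.73 against MEF 1 alone and 5.28 against MEF 2 alone. That call was lost under 9 of 17 alternatives, among them leaving out any 1 line (adjusted p = 0.0557 to 0.115), leaving out PH 1 (0.0729) or PH 2 (0.0726) and fitting the 2 groups alone (0.0875). Between PH and MEF the difference was -2.10 ± 0.82 and did not pass (adjusted p = 0.265), whereas without MEF 2 it was -3.88 (adjusted p = 0.00108) and without MEF 1 it was -0.33. The files do not say which part of the gene the single probe set reads, so its signal cannot be assigned to Ink4a or to Arf. In RNA from bulk cells, fewer cells of a type and less RNA per cell cannot be told apart.

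**Figure D1:**
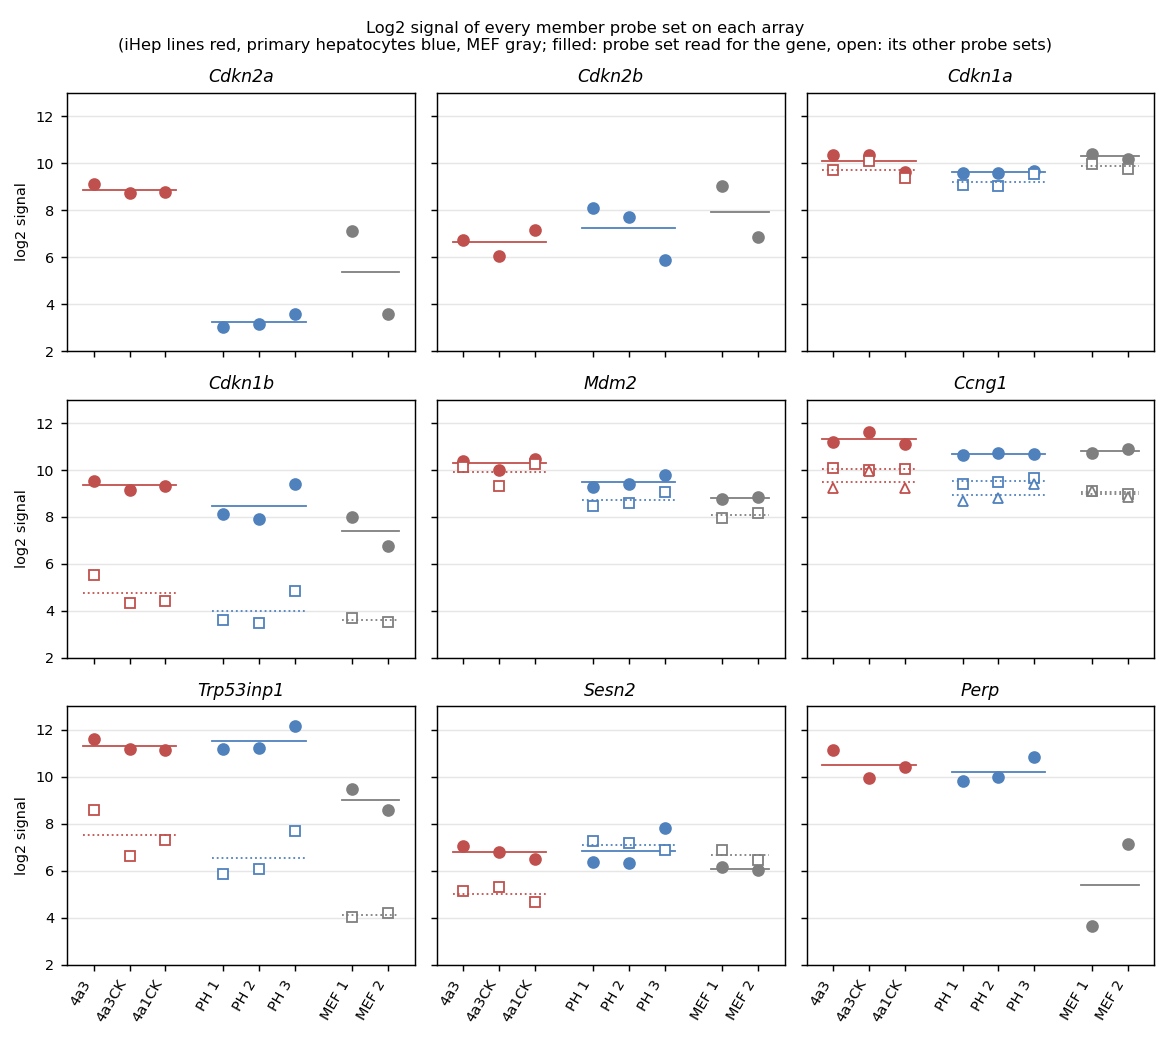
Deposited log2 signal of the members on each array, with iHep lines, PH and MEF from left to right in each panel. Points are single arrays and bars are group means, filled and solid for the probe set that stands for the gene and open and dotted for its others. Cdkn2a reads 8.74 to 9.10 in the lines against 3.04 to 3.57 in PH, and its MEF arrays stand apart at 7.13 and 3.59.

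Cdkn2b, the Ink4b (p15) inhibitor next to Cdkn2a on chromosome 4, did not share the Cdkn2a pattern. It read 6.72 in 4a3, 6.06 in 4a3CK and 7.15 in 4a1CK, against 8.11, 7.71 and 5.89 in PH and 9.01 and 6.85 in MEF 1 and MEF 2. Every pair of groups overlapped. The lines differed from PH by -0.59 ± 0.69 (adjusted p = 0.781) and from MEF by -1.29 ± 0.77 (adjusted p = 0.408), with a 95% interval of -3.05 to 0.47 for the MEF comparison. PH differed from MEF by -0.69 ± 0.77 (adjusted p = 0.68). As for Cdkn2a, MEF 1 was the higher of the MEF arrays. Mtap, a methionine salvage enzyme whose gene lies beside the locus, read 8.17 to 8.59 in the lines, 8.63 to 9.19 in PH and 8.94 and 9.48 in MEF, and none of its 4 probe sets passed against either group. With a block for the submission set, this brightest Mtap probe set was called lower in the lines than in MEF (-1.06, adjusted p = 0.0367). The 3 measured neighbours of the locus, Mtap, Dmrta1 and Elavl2, gave 0 calls in each of the 3 comparisons.

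The Cip/Kip inhibitors bind pairs of cyclin and kinase. Cdkn1a (p21), the classical p53 target among them, read 10.33 in 4a3, 10.35 in 4a3CK and 9.63 in 4a1CK, against 9.59, 9.57 and 9.68 in PH and 10.41 and 10.17 in MEF. The lines overlapped both other groups, and 4a1CK lay at the PH level. The lines differed from MEF by -0.18 ± 0.27 (adjusted p = 0.743, 95% interval -0.80 to 0.43) and from PH by 0.49 ± 0.24 (adjusted p = 0.332), and PH differed from MEF by -0.68 ± 0.27 (adjusted p = 0.285). A second probe set of Cdkn1a read 9.36 to 10.11 in the lines, 9.03 to 9.52 in PH and 9.75 and 9.97 in MEF, and did not pass in any comparison. The interval at the brighter probe set keeps the Cdkn1a difference from MEF under the log2 size of 1 that a call requires.

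Cdkn1b (p27), which is known to be governed largely by protein turnover and by FoxO factors, read 9.53 in 4a3, 9.17 in 4a3CK and 9.34 in 4a1CK, against 8.12, 7.92 and 9.39 in PH and 8.01 and 6.76 in MEF. The lines lay above both MEF arrays and above PH 1 and PH 2, but PH 3 lay among them. PH 3 was the array with the raised level. By percentile within each array it stood at 94.6, below the lines at 95.5 to 96.8. Against MEF the difference was 1.97 ± 0.49 and missed the threshold (adjusted p = 0.0571), which it passed under 7 of 17 alternatives, quantile normalization among them. Against PH it was 0.87 ± 0.44 (adjusted p = 0.347), and PH differed from MEF by 1.09 ± 0.49 (adjusted p = 0.368). The dimmer probe set of Cdkn1b read 4.32 to 5.55 in the lines, 3.50 to 4.85 in PH and 3.54 and 3.71 in MEF. Its difference of 1.15 ± 0.49 from MEF did not pass (adjusted p = 0.238). Both MEF arrays, PH 1 and PH 2 were under 4.29 on this probe set, so sizes that rest on them may be understated.

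Mdm2, the ligase that p53 induces and that degrades p53, was higher in the lines than in MEF by both of its probe sets. The brighter read 10.37 in 4a3, 9.99 in 4a3CK and 10.48 in 4a1CK, against 9.29, 9.40 and 9.78 in PH and 8.75 and 8.87 in MEF. The groups formed 3 steps without overlap, with PH in the middle. Against MEF the lines differed by 1.47 ± 0.25 (adjusted p = 0.0135), or 2.77-fold, by 0.79 ± 0.23 against PH (adjusted p = 0.0789), and PH differed from MEF by 0.68 ± 0.25 (adjusted p = 0.238). The other probe set read 10.14, 9.31 and 10.25 in 4a3, 4a3CK and 4a1CK, against 8.47, 8.61 and 9.08 in PH and 7.96 and 8.17 in MEF, and its difference from MEF was 1.84 ± 0.33 (adjusted p = 0.0169), or 3.57-fold. Its difference from PH, 1.18 ± 0.30, stood just outside the threshold (adjusted p = 0.0518) and passed under 5 of 16 alternatives. Both Mdm2 calls against MEF were lost without 4a3 (adjusted p = 0.0588 and 0.0614), MEF 1 (0.113 and 0.125) or MEF 2 (0.0814 and 0.0829), where 1 MEF array was assumed to vary like the other groups.

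Trp53inp1, a stress protein that p53 induces and that promotes p53 phosphorylation, was higher in both the lines and PH than in MEF. Its brighter probe set read 11.62 in 4a3, 11.20 in 4a3CK and 11.16 in 4a1CK, against 11.19, 11.22 and 12.16 in PH and 9.47 and 8.57 in MEF. The lines and PH overlapped and lay clear of MEF. The lines differed from MEF by 2.30 ± 0.38 (adjusted p = 0.0119), or 4.94-fold, and PH differed from MEF by 2.50 ± 0.38 (adjusted p = 0.00664), or 5.67-fold, while the lines and PH differed by -0.20 ± 0.34 (adjusted p = 0.878). Without MEF 2 the first of these was 1.85 (adjusted p = 0.0958) and the second 2.05 (adjusted p = 0.0622).

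The dimmer Trp53inp1 probe set spread more widely, at 8.59 in 4a3, 6.65 in 4a3CK and 7.33 in 4a1CK, against 5.85, 6.07 and 7.71 in PH and 4.05 and 4.19 in MEF. Line 4a3 was the highest array and MEF the lowest pair, with both MEF arrays under 4.29, so the size of the difference from MEF may be understated. Its difference between the lines and MEF was 3.40 ± 0.65 (adjusted p = 0.0209), or 10.6-fold, and was lost with a block for the submission set (2.87, adjusted p = 0.0568). It was also lost when MEF 1 (adjusted p = 0.125) or MEF 2 (adjusted p = 0.104) was left out. PH differed from MEF by 2.42 ± 0.65 on this probe set and did not pass (adjusted p = 0.084).

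Perp, a membrane protein of desmosomes that p53 and p63 induce, was among the members with the widest range. It read 11.16 in 4a3, 9.94 in 4a3CK and 10.42 in 4a1CK, against 9.81, 10.01 and 10.84 in PH and 3.67 in MEF 1 and 7.14 in MEF 2. The lines and PH overlapped, and every one of their arrays lay above both MEF arrays, which were themselves 3.47 apart. MEF 1 was under 4.29, in the dim range, so sizes that rest on it may be understated. The lines exceeded MEF by 5.10 ± 0.87 (adjusted p = 0.0129), or 34.2-fold, with 6.83 against MEF 1 and 3.36 against MEF 2, and the call held under all 17 alternatives. PH exceeded MEF by 4.81 ± 0.87 (adjusted p = 0.0149), or 28.0-fold, and this call was lost under 4 of 19 alternatives, among them the replicate block (4.50, adjusted p = 0.084) and leaving out PH 3 (4.50, adjusted p = 0.0854). Between the lines and PH the difference was 0.29 ± 0.78 (adjusted p = 0.935).

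Of 7 measured epithelial markers, 3 were called higher in the lines than in MEF and 0 lower, namely the keratins Krt19, Krt8 and Krt18. Over all genes 1.90% were called higher and 4.38% lower. Cdh1 (3.23), Dsp (2.91), Cldn4 (0.09) and Epcam (-0.02), named after their values were seen, did not pass. Cdh1 read 6.56 in 4a3, 9.47 in 4a3CK and 3.89 in 4a1CK, against 3.28 and 3.52 in MEF. The summed level of the 7 on the log2 scale was 11.23 to 12.92 in the lines, 13.12 to 13.64 in PH, 7.87 in MEF 1 and 8.51 in MEF 2, in the same order as Perp between the MEF arrays. Among the lines it was lowest in 4a3 (11.23), where Perp was highest. Krt18 read 3.80 in MEF 1 and 6.39 in MEF 2. The part of epithelial cells in the Perp difference was not tested. Among the desmosome partners of Perp, 1 of 6 was called higher in the lines than in MEF and 0 lower, the plakophilin Pkp2 (2.59 ± 0.44, adjusted p = 0.0132), a call lost without either MEF array. The count against MEF was 0 without either MEF array, 3 without 4a3 and 2 without 4a1CK. Against PH, where 5.46% of all genes were called lower and 1.40% higher, 3 of 6 were lower in the lines and 0 higher. These were the desmosomal cadherins Dsg2 (-4.18 ± 0.97, adjusted p = 0.0405) and Dsc2 (-3.44 ± 0.48, adjusted p = 0.00466) and plakoglobin, Jup (-1.29 ± 0.18, adjusted p = 0.0051). The Dsg2 call was lost under 9 of 17 alternatives, leaving out any PH array among them. Dsg2 was near the MEF level in 4a3 (3.93) and higher in 4a3CK (7.49) and 4a1CK (8.32). Trp63, the p53 relative that drives Perp in stratified epithelia, read 3.0 to 4.33 over its 4 probe sets and all arrays, with 0 calls.

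Ccng1 (cyclin G1), a p53 target that recruits a phosphatase to Mdm2, has 3 probe sets. The brightest read 11.21 in 4a3, 11.61 in 4a3CK and 11.12 in 4a1CK, against 10.63, 10.73 and 10.68 in PH and 10.74 and 10.90 in MEF. The lines lay above both other groups, but the differences were 0.49 ± 0.23 from MEF (adjusted p = 0.281) and 0.63 ± 0.20 from PH (adjusted p = 0.118), and PH differed from MEF by -0.14 ± 0.23 (adjusted p = 0.746). The middle probe set by mean read 10.07, 9.99 and 10.05 in 4a3, 4a3CK and 4a1CK, against 9.41, 9.50 and 9.68 in PH and 9.10 and 8.99 in MEF. Its difference from MEF, 0.99 ± 0.20, had an adjusted p of 0.0283 and lay just under the size of 1 required for a call. The dimmest read 9.24 to 9.95 in the lines, 8.68 to 9.40 in PH and 8.85 and 9.09 in MEF, and did not pass.

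The probe sets of Sesn2, a sestrin that p53 and amino acid stress induce and that restrains mTORC1, went opposite ways. The brighter by mean read 7.04 in 4a3, 6.80 in 4a3CK and 6.52 in 4a1CK, against 6.39, 6.35 and 7.83 in PH and 6.15 and 6.04 in MEF. The lines lay above MEF and overlapped PH, with differences of 0.70 ± 0.44 (adjusted p = 0.427) from MEF and -0.07 ± 0.39 (adjusted p = 0.975) from PH. The other read 5.12 in 4a3, 5.29 in 4a3CK and 4.67 in 4a1CK, against 7.26, 7.19 and 6.88 in PH and 6.87 and 6.46 in MEF, with the lines below every other array. On that probe set the lines differed from PH by -2.08 ± 0.24 (adjusted p = 0.00198), a 4.23-fold lower signal, and the call was kept under all 16 alternatives. They differed from MEF by -1.64 ± 0.27 (adjusted p = 0.0115), a 3.11-fold lower signal, and this call was lost without MEF 1 (adjusted p = 0.112). No direction for Sesn2 as a gene can be read from these probe sets together.

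**Figure D2:**
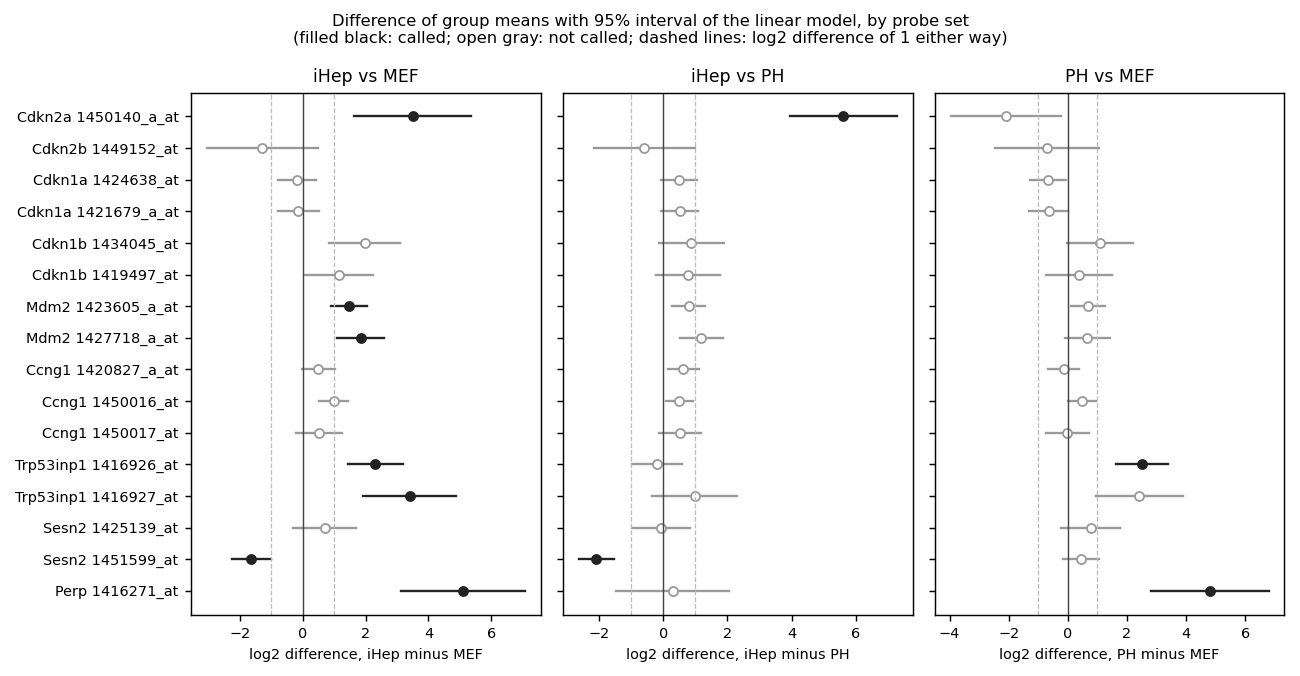
Log2 difference at each of the 16 member probe sets, the one that stands for the gene first, in iHep against MEF, iHep against PH and PH against MEF, with 95% intervals of the limma fit. Cdkn2a differs from PH by 5.61 in the lines, and Perp and Trp53inp1 differ from MEF in both the lines and PH.

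Against MEF, 4 of the 9 members were called higher in the lines and 0 lower (Cdkn2a, Mdm2, Trp53inp1 and Perp), where 6.27% of all genes were called, 1.90% as higher and 4.38% as lower. The groups did not overlap for 7 of the 9 members, all higher in the lines, but with so few arrays 60.9% of all genes did not overlap either, 42.6% with the lines higher and 18.4% with the lines lower. Against PH, 1 of 9 was called higher in the lines and 0 lower (Cdkn2a), where 6.87% of all genes were called, 1.40% as higher and 5.46% as lower. In that comparison 3 members did not overlap, all higher in the lines, where 26.3% of all genes did not, 5.04% higher and 21.3% lower. For PH against MEF, 2 of 9 were called higher and 0 lower (Trp53inp1 and Perp), where 5.61% of all genes were called, 3.20% as higher and 2.41% as lower. There 7 members did not overlap, 4 higher and 3 lower in PH, where 38.0% of all genes did not, 30.1% higher and 7.90% lower. The members' median difference was 1.47 for the lines against MEF, 0.49 for the lines against PH and 0.68 for PH against MEF, and the medians over all genes were 0.16, -0.09 and 0.25. The comparisons share their control arrays, so the lists of calls are not independent of each other. The members were chosen with earlier results of these data known, so their counts beside those of all genes carry no test.

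Counted by probe set, 6 of the 16 were called higher and 1 lower in the lines against MEF, where 5.55% of all probe sets were called, 1.64% as higher and 3.91% as lower. Against PH, 1 was higher and 1 lower, where 5.93% of all probe sets were called, 1.31% as higher and 4.62% as lower. For PH against MEF 2 were higher and 0 lower, where 4.77% of all were called, 2.59% as higher and 2.18% as lower. The probe sets of a gene are not independent of each other. Leaving out 1 array at a time gave 2 to 5 member genes called for the lines against MEF, with 2 left without 4a3 and 2 without MEF 2. It gave 1 or 2 for the lines against PH, with 2 without PH 3, and 1 or 2 for PH against MEF, with 1 without PH 3.

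**Figure D3:**
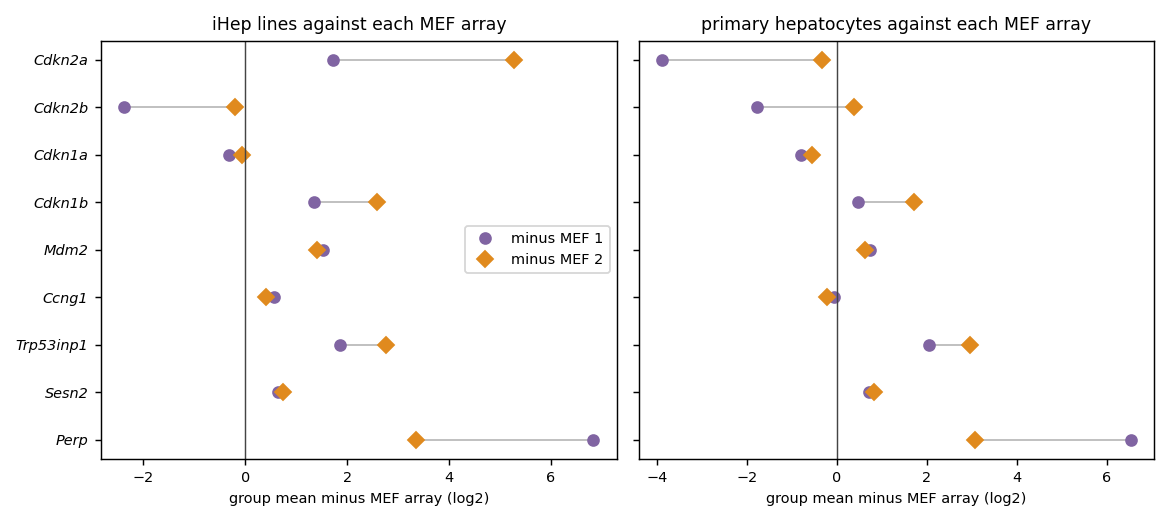
Difference of the iHep mean (left) and of the PH mean (right) from MEF 1 and from MEF 2 taken singly, in log2, without a test. The MEF arrays give like values for Mdm2, Ccng1, Sesn2 and Cdkn1a, and values 3.47 to 3.55 apart for Perp and Cdkn2a.

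Among the members, the MEF arrays were furthest apart for Cdkn2a and Cdkn2b, both higher in MEF 1, and for Perp, higher in MEF 2. They read within 0.24 of each other for the probe sets that stand for Mdm2, Ccng1, Sesn2 and Cdkn1a. MEF 1 and MEF 2 came from different submission sets. Of 9 macrophage markers 4 read higher and 5 lower in MEF 2 than in MEF 1, and their summed log2 level was 9.37 in MEF 1 and 9.98 in MEF 2. Their part in the member values was not tested. Cdkn2a in the lines stood above the higher MEF array as well.

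Among the lines, single arrays gave differences with no replicate check. Line 4a3 read higher than 4a3CK by 1.93 for the dimmer Trp53inp1 probe set and by 1.23 for the dimmer Cdkn1b probe set. It was also higher by 1.21 for Perp and by 0.83 for the dimmer Mdm2 probe set. Line 4a3CK was the higher by 0.70 for the dimmest Ccng1 probe set. Cdkn2a differed by 0.35 at most between any of the lines. Line 4a1CK was the lowest of the lines for both Cdkn1a probe sets and 4a3CK was the lowest for Cdkn2b. Cdkn2a was therefore high in a line without c-Myc and Klf4 as well as in both lines that had received them.

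Other genes that p53 is known to induce were read from a list of 35, of which 32 were measured. Over all genes 1.90% were called higher in the lines than in MEF and 4.38% lower, with a median difference of 0.16. In the lines 8 of the 32 were called higher than in MEF and 0 lower, with a median difference of 0.96. The 4 with the largest differences were Btg2, an antiproliferative protein (2.86 ± 0.67, adjusted p = 0.0441), the BH3-only death protein Pmaip1, or Noxa (2.41 ± 0.57, adjusted p = 0.0468), the repair nuclease Ercc5 (2.30 ± 0.35, adjusted p = 0.00761) and the stress protein Gadd45a (1.81 ± 0.40, adjusted p = 0.0376). Btg2 read 10.95, 10.74 and 10.54 in 4a3, 4a3CK and 4a1CK, against 8.57, 8.39 and 10.85 in PH and 8.31 and 7.45 in MEF. Ercc5 read 8.96, 8.63 and 8.98 in the same lines, against 7.42, 7.50 and 8.55 in PH and 6.57 and 6.55 in MEF. The lines were above MEF for both, and PH 3 was above PH 1 and PH 2. The first, the second and the last of these calls were lost under 8 or 9 of 17 alternatives, and that of Ercc5 without either MEF array. The other 4 were the repair protein Xpc (1.81), the epoxide hydrolase Ephx1 (1.61), the microtubule regulator Psrc1 (1.45) and the repair polymerase Polk (1.27).

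The death gene Bbc3, or Puma, differed from MEF by -0.21 in the lines (adjusted p = 0.85) and Phlda3, an Akt inhibitor, by -0.84 (adjusted p = 0.13). Sesn1, the sestrin relative of Sesn2, differed by 2.09 ± 0.76 and did not pass (adjusted p = 0.17). These 3 genes were chosen after their values were seen. Over all genes 1072 were called against MEF, 781 with PH 1 and PH 2 averaged and 1008 with a block for the submission set. Without 4a3 that number was 554, without 4a1CK 767, without 4a3CK 1288, without PH 1 767, without PH 2 766 and without PH 3 1899. Among the 32 targets the count of 8 fell to 3 with PH 1 and PH 2 averaged and to 2 with a block for the submission set. Leaving out 1 array gave 0 without MEF 2, 1 without MEF 1, 1 without 4a3, 2 without PH 1, 3 without 4a1CK, 4 without PH 2, 5 without 4a3CK and 12 without PH 3. Against PH, 2 of the 32 were called higher in the lines and 0 lower, with a median of 0.33, the adenylate kinase Ak1 (2.66 ± 0.31, adjusted p = 0.0019) and Psrc1 (1.57 ± 0.29, adjusted p = 0.0152). Over all genes 1.40% were called higher than in PH and 5.46% lower, and for PH against MEF 3.20% higher and 2.41% lower. The Psrc1 call was lost under 5 of 17 alternatives and the Ak1 call under 0. Over all genes 1174 were called against PH, 589 without 4a3, 560 without PH 1 and 577 without PH 2. That number was 1690 after quantile normalization without PH 3 and 1828 without PH 3. Among the 32 targets the count of 2 was 1 without 4a3, PH 1 or PH 2. It was 9 after quantile normalization without PH 3 and 10 without PH 3, the array with the raised level. For PH against MEF 3 were higher and 1 lower, with a median of 0.43, and 1 was called without MEF 2.

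**Figure D4:**
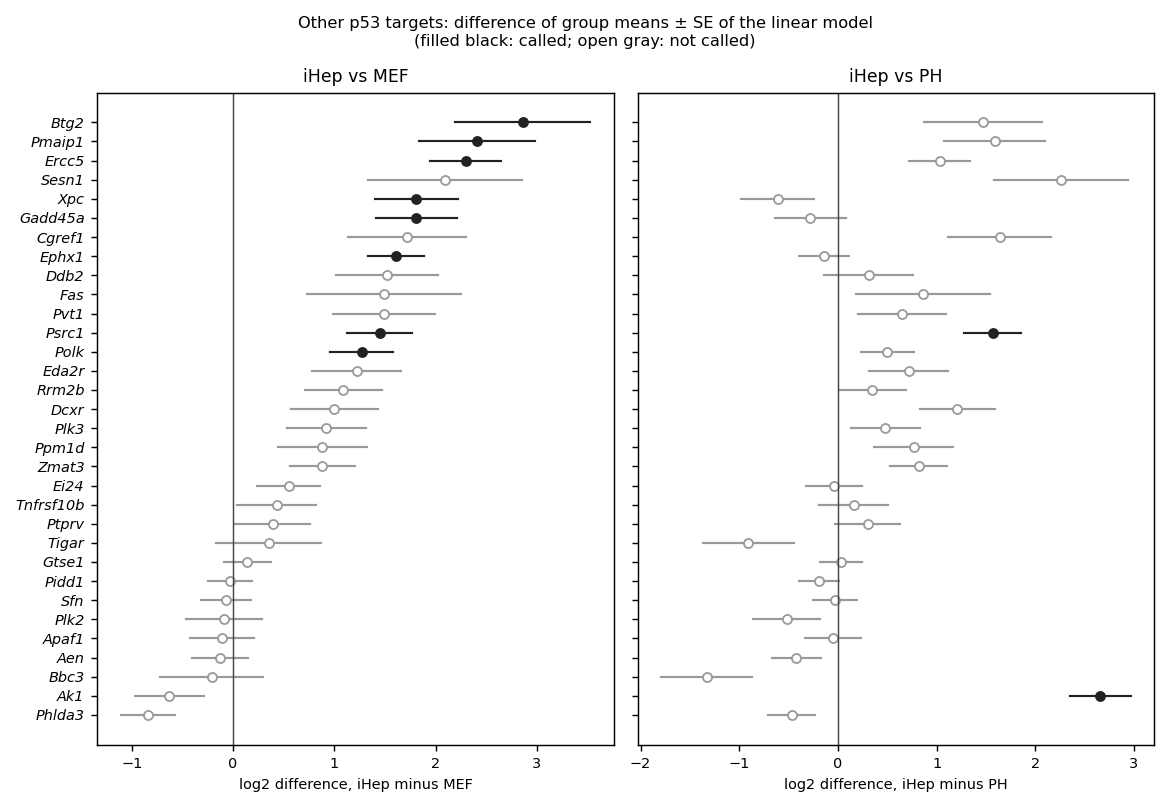
Log2 difference of the measured p53 targets outside the members for iHep against MEF and iHep against PH, with called genes marked. Against MEF 8 of 32 are called higher and 0 lower, led by Btg2 at 2.86, and against PH 2 of 32, led by Ak1 at 2.66.

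Of 14 measured regulators of p53, 0 were called in any of the 3 comparisons, with median differences of 0.28 for the lines against MEF, 0.01 for the lines against PH and 0.13 for PH against MEF. In the same order, 6.27%, 6.87% and 5.61% of all genes were called. Mdm4, the partner of Mdm2 that masks p53, read 8.43 in 4a3, 7.74 in 4a3CK and 8.97 in 4a1CK, against 5.82, 5.87 and 7.62 in PH and 6.93 and 6.19 in MEF at its brightest probe set. The lines lay above every other array, yet the differences of 1.82 ± 0.58 from MEF (adjusted p = 0.123) and 1.94 ± 0.52 from PH (adjusted p = 0.0655) did not pass. The difference from PH passed under 5 of 17 alternatives (2.53, adjusted p = 0.00959 without PH 3) and that from MEF under 2 of 17. Its other 3 probe sets differed from MEF by 0.37 to 0.92. Wrap53, whose gene overlaps Trp53 on the opposite strand, differed by -0.59 ± 0.26 from MEF (adjusted p = 0.265) and by -0.64 ± 0.24 from PH (adjusted p = 0.172).

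Over all genes 1.90% were called higher in the lines than in MEF and 4.38% lower. Among 7 other kinase inhibitors and pocket proteins, 1 was called higher in the lines than in MEF and 0 lower. This was Rb1, the retinoblastoma protein that Ink4a keeps active, which read 8.54, 7.62 and 7.89 in 4a3, 4a3CK and 4a1CK, against 7.55, 7.67 and 8.25 in PH and 5.94 and 6.24 in MEF (1.93 ± 0.33 from MEF, adjusted p = 0.0139), a call lost without either MEF array. Of the 9 cyclins and kinases on which the inhibitors act, 2 were lower in the lines than in MEF and 0 higher, Cdk2 (-1.20 ± 0.27, adjusted p = 0.0385) and Ccnd3, cyclin D3 (-1.02 ± 0.24, adjusted p = 0.0444), and each of these calls was lost under 10 of 17 alternatives. Their count was 0 when 4a3, 4a1CK, either MEF array, PH 1 or PH 2 was left out, and 4 without PH 3. Cdk4, a target of Ink4a, differed by -1.04 ± 0.29 from MEF (adjusted p = 0.0825) and by -0.37 ± 0.26 from PH (adjusted p = 0.555). Cdk6, the other target, differed by -0.03 ± 0.46 from MEF (adjusted p = 0.976) and by -1.32 ± 0.41 from PH (adjusted p = 0.104). These are the brightest probe sets. The others of Cdk4 differed from MEF by -1.23 and -1.33 (adjusted p = 0.057 and 0.0695). Those of Cdk6 differed by -0.77 and -0.53 from MEF, and by -2.05 and -0.68 from PH (adjusted p = 0.0534 and 0.0745). None of them passed. Against PH 0 of the 9 were called, where 6.87% of all genes were called.

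Of 15 E2F targets of DNA replication, 1 was lower in the lines than in MEF and 0 higher, the helicase subunit Mcm5 (-2.44 ± 0.52, adjusted p = 0.032). Mcm5 read 4.26, 5.58 and 4.15 in 4a3, 4a3CK and 4a1CK, against 5.98, 6.34 and 5.66 in PH and 6.42 and 7.79 in MEF. Against PH 2 were higher and 0 lower, the ribonucleotide reductase subunit Rrm2 (2.03 ± 0.47, adjusted p = 0.04) and the licensing factor Cdt1 (1.37 ± 0.33, adjusted p = 0.0477). Over all genes 6.27% were called against MEF and 6.87% against PH. The medians over this list were -0.48 against MEF and -0.06 against PH. These 3 calls were lost under 6 to 8 of 17 alternatives, leaving out PH 1 or PH 2 among them. The count ran from 0 to 4 in either comparison when single arrays were left out, and was 4 without 4a3CK in both and 4 without PH 3 against PH.

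Of 23 measured regulators of the Ink4a and Arf locus, 1 was higher and 3 lower in the lines than in MEF, where 6.27% of all genes were called. The count of 4 was 1 without either MEF array, 2 without 4a3 and 7 without 4a3CK. Cbx7, a Polycomb reader that represses the locus, was higher (2.30 ± 0.40, adjusted p = 0.0149), at 6.80, 6.19 and 6.96 in 4a3, 4a3CK and 4a1CK, against 4.88, 4.93 and 6.10 in PH and 4.42 and 4.28 in MEF. The Polycomb subunits Phc2 (-1.91 ± 0.40, adjusted p = 0.0295) and Phc1 (-1.68 ± 0.29, adjusted p = 0.0132) and the repressor Tbx3 (-1.41 ± 0.27, adjusted p = 0.0205) were lower. The call of Cbx7 was lost without either MEF array, that of Phc1 without MEF 2, that of Tbx3 without 4a3 or either MEF array, and that of Phc2 under 8 of 17 alternatives. Against PH, where 6.87% of all genes were called, 2 were higher and 2 lower, a count of 4 that was 2 without PH 1 or PH 2. Twist1 (2.75 ± 0.50, adjusted p = 0.015) and the chromatin protein Hmga2 (2.03 ± 0.37, adjusted p = 0.0152), both repressors of the locus, were higher. Phc2 (-2.52 ± 0.36, adjusted p = 0.00508) and the histone demethylase Kdm2b (-1.48 ± 0.24, adjusted p = 0.00932) were lower, under all 17 alternatives. The calls of Twist1 and Hmga2 were lost without PH 1 or PH 2. Twist1 and Hmga2 are also genes of mesenchymal or fetal cells, and Twist1 is in the fibroblast list. Phc2 read 5.91, 6.47 and 5.95 in 4a3, 4a3CK and 4a1CK, against 9.11, 8.85 and 7.92 in PH, and the lines were below every other array.

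Genes that often accompany Ink4a in senescent cells, most of them secreted, were read from a list with 12 measured. In the lines 4 were lower than in MEF and 0 higher, with a median of -4.03. Against PH, 2 were lower and 0 higher, with a median of -1.0. Over all genes 4.38% were called lower than in MEF and 5.46% lower than in PH. The matrix protease Mmp3 differed from MEF by -5.87 ± 0.84 (adjusted p = 0.0055), the chemokine Ccl2 by -5.72 ± 0.43 (adjusted p = 0.000243), Igfbp3, which binds insulin-like growth factors, by -5.62 ± 0.56 (adjusted p = 0.000863), and the protease inhibitor Timp1 by -4.91 ± 0.52 (adjusted p = 0.00108). Ccl2 read 4.97 to 5.13 in the lines, 11.09 to 11.28 in PH and 9.92 and 11.62 in MEF. Against PH, Ccl2 differed by -6.16 ± 0.38 (adjusted p = 8.61e-05) and Igfbp3 by -4.42 ± 0.50 (adjusted p = 0.00173). All 6 calls held under 17 alternatives each. The size for Mmp3 was -7.71 without MEF 2 and -4.02 without MEF 1. The count against MEF was 7 without MEF 2, and that against PH was 5 without 4a3CK, 4 without either MEF array and 4 with the compared groups alone. Igfbp5 (-0.31), Plaur (-0.27), Cxcl1 (-0.19) and the lysosomal galactosidase Glb1 (0.26), named after their values were seen, did not pass against MEF. Nor did Cxcl5 (-4.43), Mmp13 (-4.15), Il6 (-3.9) and Cxcl2 (-1.96), whose differences were larger. Cxcl5 read 11.86 in MEF 1 and 7.05 in MEF 2, Mmp13 10.28 and 5.96, Il6 9.59 and 4.55, and Cxcl2 8.96 and 4.07. Plaur went the other way, at 6.57 and 8.27. MEF 1 was also the MEF array with the higher Cdkn2a. Of 12 fibroblast markers 8 were lower in the lines than in MEF and 0 higher. Their part in the differences of this list between the lines and MEF was not tested.

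The genes whose pattern over the 8 arrays was most like that of a member were found by Pearson correlation among 10990 genes whose range was at least 1. For Cdkn2a they were Isg20, an exonuclease (r = 0.943, Spearman rho = 0.81), Sh3bp1, a GTPase regulator (r = 0.941, rho = 0.952) and Vldlr, a lipoprotein receptor (r = 0.94, rho = 0.738). Isg20 read 10.31, 7.68 and 9.34 in 4a3, 4a3CK and 4a1CK, against 5.05, 5.37 and 5.02 in PH and 7.40 and 5.03 in MEF 1 and MEF 2. For Perp they were Gclc (r = 0.969, rho = 0.762), Cadm1 (r = 0.964, rho = 0.571) and Slc35d1 (r = 0.962, rho = 0.643). Each was higher in MEF 2 than in MEF 1, and by rank the likeness was weaker. For Cdkn1a, with 10991 candidates, they were the matrix protein Mgp (r = 0.98, rho = 0.881), Abcg1 (r = 0.934, rho = 0.81) and Kdelr3 (r = 0.919, rho = 0.952). The points of each correlation share the groups and the arrays, so these values describe the arrays and carry no test.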

How the data were processed

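Total RNA of 3 iHep lines, 3 primary hepatocyte samples and 2 fibroblast samples was hybridized to mouse 3' expression arrays with perfect-match probes, 1 array a sample. The authors deposited log2 values, 1 for each probe set, and the submitters' processing notes name Partek and RMA (robust multi-array averaging) without versions. RMA summarizes a probe set's probes and compresses low signals. The values were used as deposited. Of 45141 probe sets, 104 were controls, 551 carried several gene symbols and 15588 had no listed gene, which left 28898.

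Group means of the 8 arrays were estimated for 28898 probe sets in limma 3.58.1 (lmFit, eBayes; R 4.3.3), with 5 residual and 3.56 prior degrees of freedom. Errors of differences are standard errors (SE) of that model, tests are two-sided and p-values were adjusted by Benjamini and Hochberg over all probe sets. The code was tested on simulated data. Tables and plots used Python 3.11.15, pandas 2.3.3, numpy 2.4.6 and matplotlib 3.10.9.

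The members, lists and naming rule were chosen with earlier results of these data known. The rule named every member, up to 4 called genes of the largest difference in each list for iHep against MEF and iHep against PH, then Mtap, Mdm4, Wrap53, Trp63, Cdk4 and Cdk6, and the 3 genes most like Cdkn2a, Cdkn1a and Perp. Lists share some genes, such as Twist1. Alternatives were quantile normalization, subtracting array medians, averaging PH 1 with PH 2, 1 probe set a gene, leaving out probe sets under percentile 40 (4.29) on every array, the 2 compared groups alone, a trended robust variance, a block by submission set (the order of deposit: MEF 2, the lines and PH 3, then MEF 1, PH 1 and PH 2), the replicate number as a block, and leaving out each array. Values within a submission set, a crossed pairing and quantile normalization without PH 3 were added after seeing the data.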

Additional observations from a re-analysis of the deposited data

How the results depend on the processing

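Over the 48 member differences, 763 of 827 refitted values kept direction and side of the threshold, 25 lost a call, 17 gained one and 22 changed sign. Another 64 values within a submission set have no test, and 22 of them moved by at least 1 SD and 7 took the opposite sign. Leaving out 1 array gave 2 to 5 member genes called for iHep against MEF, 1 to 2 for iHep against PH and 1 to 2 for PH against MEF. Quantile normalization without PH 3 gave 1 for PH against MEF. Counts over all genes moved as well, for iHep against MEF from 1072 to 554 without 4a3 and to 1899 without PH 3. The member and list counts under such settings are to be read beside these. Same-numbered MEF and PH arrays share only a number, and their deviations from the group means correlated at -0.181. With the replicate block 1 member gene was called for PH against MEF, and 1 with crossed numbers. No paired fit was made for the iHep comparisons because the lines carry no replicate number. The p53 targets called outside the members were 3 for iHep against MEF with PH 1 and PH 2 averaged and 2 with the submission block, against 8. For iHep against PH they were 4 after quantile normalization, 1 with PH 1 and PH 2 averaged and 9 after quantile normalization without PH 3, against 2. Without single arrays they ran from 0 to 12, 1 to 10 and, for PH against MEF, 1 to 5.

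Differences that did not pass changed sign as follows. For iHep against PH, Perp was -1.06 and Cdkn2b 0.80 with the submission block, and the brighter Sesn2 probe set was 0.09 after quantile normalization, 0.01 after subtracting medians and 0.33 after quantile normalization without PH 3. For PH against MEF, the dimmer Cdkn1b probe set was -0.06 with the replicate block, -0.06 crossed and -0.06 after quantile normalization without PH 3. In that comparison Cdkn2b was 0.05 after the last of these, and the dimmest Ccng1 probe set was 0.09 with PH 1 and PH 2 averaged and 0.03 with the submission block. Without single arrays, iHep against MEF ran from -0.34 to 0.04 and -0.31 to 0.05 for the Cdkn1a probe sets and from -0.47 to 0.38 for Cdk6. For iHep against PH it ran from -0.04 to 0.60 for Perp, -0.36 to 0.12 for the brighter Trp53inp1 probe set and -0.32 to 0.42 for the brighter Sesn2 probe set. For PH against MEF it ran from -0.06 to 0.61 for the dimmer Cdkn1b probe set, -1.78 to 0.39 for Cdkn2b and -0.24 to 0.12 for the dimmest Ccng1 probe set. Within the earlier submission set, iHep against PH was -0.33 for Perp, -0.19 for the dimmer Trp53inp1 probe set, -0.04 and -0.08 for the brighter and dimmer Cdkn1b probe sets and 0.75 for Cdkn2b. PH against MEF was 0.55 for the dimmest Ccng1 probe set there, and -0.15 for the dimmer Cdkn1b probe set within the later set. The causes were not tested. Cdkn2a in PH and MEF 2, Perp in MEF 1, and the dimmer Trp53inp1 probe set in MEF lie in the dim range, where RMA compresses differences. The dimmer Cdkn1b probe set lies there in MEF, PH 1 and PH 2.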
